A study of Mus musculus with 2 samples.

Results

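The genes described here are 10 named noncoding RNAs of the mouse that total RNA libraries can hold: Rn7s1, Rn7s2, Rn7sk, Rmrp, Rpph1, Rny1, Rny3, Terc, Malat1 and Neat1. They were chosen by name from the GENCODE M21 annotation, and the rule itself uses no measured value. The 10 names correspond to 11 gene IDs, since Rmrp is annotated under 2 IDs, out of 55536 annotated genes. The ENCODE project sequenced total RNA of the adrenal gland of male B6CASTF1/J mice, the offspring of a C57BL/6J and CAST/EiJ cross, at 10 days of age. Each library was begun with 300 ng of RNA, to which ERCC spike-ins were added, and the 2 libraries, replicate 2 and replicate 1, form the only group. No treatment, genotype or time point was compared, so the values below are levels and differences between libraries without a test. Replicate 1 carries the animal label Male 03 and replicate 2 the animal label Male 04, while the description of both libraries says Male 03 and both carry 1 donor identifier. The spread between them may therefore be technical, and the SD given with each mean is that of 2 libraries.

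Noncoding RNAs of this kind act as parts of RNA-protein machines. The signal recognition particle, of which its RNA is a part, carries nascent secretory proteins to the endoplasmic reticulum. The 7SK RNA holds the transcription elongation factor P-TEFb in an inactive complex, and the RNAs of RNase P and RNase MRP process transfer RNA and ribosomal RNA precursors. Y RNAs bind the Ro60 protein, Terc is the template RNA of telomerase, and Malat1 and Neat1 are long nuclear RNAs of nuclear speckles and paraspeckles. RNA polymerase III makes the signal recognition particle RNA, 7SK, the RNase P and RNase MRP RNAs and the Y RNAs, whereas RNA polymerase II makes Terc, Malat1 and Neat1.

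Sequences of short RNAs are shown first because their length, their identity to each other and their annotation decide how the counts below can be read. Those printed are from the GENCODE M21 transcripts, on the mm10 build, written as DNA letters from 5′ to 3′ on the RNA strand. Rn7s1 (chr12:69159295-69159594, plus strand) and Rn7s2 (chr12:69361182-69361481, minus strand) are 2 genes of the signal recognition particle RNA that lie 201588 bases apart and have the same 300 bases, with no difference between them.
Of the 331 bases of Rn7sk (chr9:78175303-78175633, minus strand) the first 100 are shown, with the letters GATC in capitals, a motif that occurs 3 times in the whole RNA, at bases 13, 42 and 64.
Rn7sk, bases 1 to 100: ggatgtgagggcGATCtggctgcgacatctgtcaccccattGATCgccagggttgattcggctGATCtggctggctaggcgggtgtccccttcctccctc
Rmrp is annotated as a ribozyme of 271 bases (chr4:43492788-43493058, minus strand) and as a lincRNA of 281 bases (chr4:43492783-43493063, minus strand). The shorter lies inside the longer from base 6, and the capitals mark the bases that only the longer one holds.
Rmrp, longer entry: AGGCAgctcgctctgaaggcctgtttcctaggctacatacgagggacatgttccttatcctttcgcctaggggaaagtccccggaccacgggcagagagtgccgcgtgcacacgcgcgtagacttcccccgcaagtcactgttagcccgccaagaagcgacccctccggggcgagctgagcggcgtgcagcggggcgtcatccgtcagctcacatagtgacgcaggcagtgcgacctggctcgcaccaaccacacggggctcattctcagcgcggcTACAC
Rny1 (chr6:47788069-47788180, minus strand) and Rny3 (chr6:47781624-47781725, plus strand) lie 6344 bases apart, and 79.4% of the 102 aligned positions are identical. The capitals mark GGTCCGA, which starts at base 5 in both.
Rny1: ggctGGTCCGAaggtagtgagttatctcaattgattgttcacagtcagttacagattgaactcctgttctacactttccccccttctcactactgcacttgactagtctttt
Rny3: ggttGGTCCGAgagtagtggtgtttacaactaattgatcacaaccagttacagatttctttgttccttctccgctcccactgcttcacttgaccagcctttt
Of the 423 bases of Terc (chr3:96414437-96414859, minus strand) the first 60 are shown, with CTAACCC, the telomere template letters, in capitals at base 29.
Terc, bases 1 to 60: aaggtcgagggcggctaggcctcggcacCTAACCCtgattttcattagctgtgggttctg

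In all, 8 motif searches were made on these RNAs, with no mismatch allowed, and the matches given are those on the RNA strand. The background is the share of annotated genes whose longest transcript holds the motif within its first bases, over a window as long as the RNA searched. GATC occurred in 60.4% of windows of 331 bases, and 7.60% held at least 3. CTAACCC occurred in 1.2% of windows of 423 bases. GGTCCGA occurred in 0.237% of windows of 112 bases and in 0.219% of windows of 102 bases. TGAG, searched in Terc, matched at 1 position, and 87.9% of windows of 423 bases held it. The other 3 searches found no match in their RNA: GTTCNANNC in Rn7s1, with a background of 5.01%, and ACAGNNA in Rpph1 and in Rmrp, with backgrounds of 39.8% and 34.9%. A missing match says only that those letters are not in that sequence. On the other strand, where GATC reads the same, TGAG matched at 2 positions of Terc and ACAGNNA at 1 position of Rmrp.

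Expected counts, the read numbers that the authors' gene table assigns to each gene, totalled 38984236 in replicate 2 and 36982665 in replicate 1, with 0.879% and 0.892% of them on spike-ins. TPM, the length-normalised level, divides counts by the effective length of a transcript and is the scale on which levels of different genes are compared here. The tissue label was checked against marker lists. All 8 adrenal cortex genes and all 7 chromaffin cell genes were at 1 TPM or more in both libraries, with median levels of 608 and 162 TPM. Of the 55536 annotated genes, 14236 were at that level in replicate 2 and 14014 in replicate 1. The adrenal cortex list summed to 5553 TPM in replicate 2, against 6346 TPM in replicate 1, and the chromaffin list to 1249 and 1499 TPM. Genes of neighbouring tissues were also present and differed between the libraries. The liver list summed to 13546 TPM in replicate 2, against 4324 TPM in replicate 1, and each of its 6 genes was over 2-fold higher in replicate 2. Both its sum and its median were above those of the adrenal cortex list in replicate 2 and below them in replicate 1. For skeletal muscle the 5 genes summed to 785 TPM in replicate 2, against 289 TPM in replicate 1, and the 5 granulocyte genes to 87.6 and 27.9 TPM in the same order. The 4 brown fat genes summed to 3028 TPM in replicate 2, against 3425 TPM in replicate 1. Among them Ucp1 had 1149 and 1566 TPM in the same order. Cox8b and Cidea were slightly higher in replicate 2, and Cox7a1 was slightly lower. In bulk tissue, a different number of cells of a type and a different amount of RNA per cell cannot be told apart.

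In the gene table the 10 RNAs together took 6.10% of all expected counts in replicate 2 and 6.91% in replicate 1 (6.50 ± 0.58%, SD, n = 2). On the TPM scale they took 29.2% in replicate 2 and 31.8% in replicate 1 (30.5 ± 1.82%, SD, n = 2). The 8 RNAs under 500 bases made up nearly all of the TPM share, 29.1% in replicate 2 and 31.6% in replicate 1. Malat1 and Neat1 together took 0.412% of counts in replicate 2 and 0.501% in replicate 1, and 0.137% and 0.163% of TPM in the same order.

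**Figure D1:**
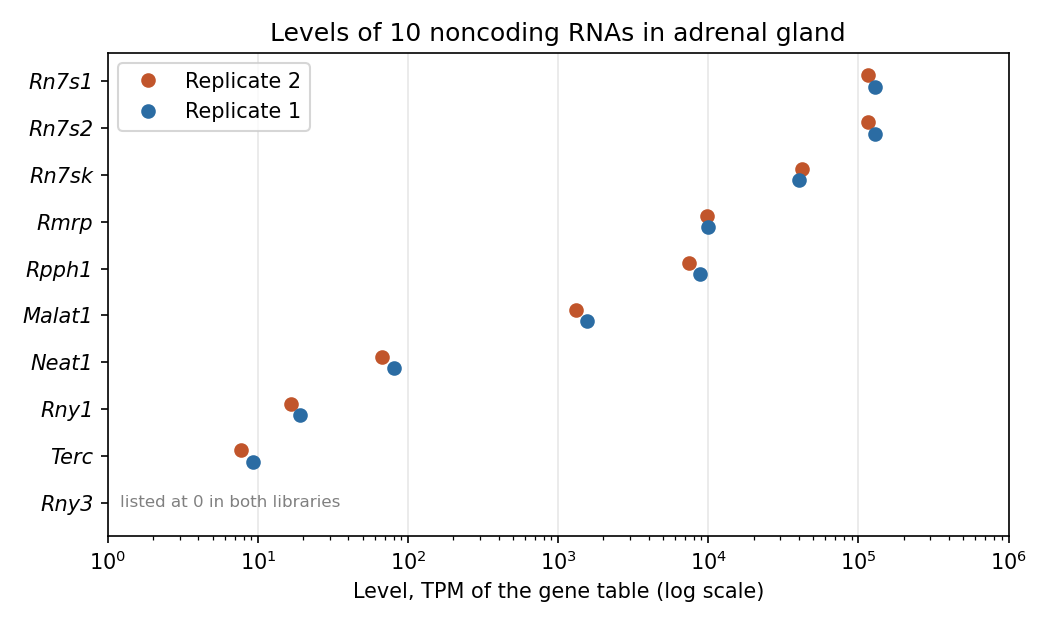
Levels of the 10 noncoding RNAs in TPM of the gene table (log axis), 1 point per library, replicate 2 in orange and replicate 1 in blue, with 2 gene IDs summed for Rmrp. The mean levels run from 122164 TPM for Rn7s1 and Rn7s2 to 8.46 TPM for Terc, and Rny3 was listed at 0 in both libraries.

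The signal recognition particle RNA was the most abundant entry of all annotated genes on the TPM scale. Rn7s1 had 115648 TPM in replicate 2 and 128680 TPM in replicate 1 (122164 ± 9215 TPM, SD, n = 2), and Rn7s2 had the same values. Their sequences are identical, so a read cannot be assigned to one gene or the other, and the pair is read here as 1 RNA with 231296 TPM in replicate 2, against 257360 TPM in replicate 1. The deposited posterior SD of the Rn7s1 count was 20167 in replicate 2 and 22580 in replicate 1, against 4.22 and 3.25 for Rn7sk, which has no identical partner. Both annotated genes that matched Rn7s1 over at least 80% of its length at 80% identity or more, Gm24105 and Gm22876, had 0 counts in both libraries. The miRNA entries Gm47295 and Gm47287 within Rn7s1, and Gm47299 and Gm47305 within Rn7s2, also had 0 counts. Rps29, a ribosomal protein gene that starts 109 bases from Rn7s1 on the opposite strand, had 605 TPM in replicate 2, against 564 TPM in replicate 1. The other protein-coding neighbours were Lrr1 beside Rn7s1, at 0.62 and 0.66 TPM in replicate 2 and replicate 1, and Nemf and Gm9887 beside Rn7s2, at 11.3 and 11.8 TPM for Nemf and 0.21 and 0.36 TPM for Gm9887.

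The RNA levels of genes for its protein partners lay far lower on the same scale. All 10 listed genes of the signal recognition particle and its receptor were at 1 TPM or more in both libraries, with a median level of 25.9 ± 0.77 TPM (SD, n = 2). Srp14, a protein of the Alu domain of the particle, averaged 46.9 ± 1.14 TPM and Srp72, a protein of the S domain, averaged 45.6 ± 2.84 TPM (SD, n = 2 each). Srprb, the beta subunit of the receptor, was the lowest at 9.03 ± 0.18 TPM.

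Rn7sk, the 7SK RNA, had 42366 TPM in replicate 2 and 40291 TPM in replicate 1 (41329 ± 1467 TPM, SD, n = 2), so the summed Rn7s1 and Rn7s2 level was 5.46 times that of Rn7sk in replicate 2 and 6.39 times in replicate 1. Its only copy by the same thresholds, Gm23037, had 5 counts in replicate 2 and 4 in replicate 1, against 364937 and 342230 for Rn7sk. The annotated nuclear genes nearest to it in level, Gm28661 and Gm26917, were lower. Rn7sk was 2.74 times Gm28661 and 2.90 times Gm26917 in replicate 2, and 2.58 and 2.48 times in replicate 1, with these genes at 15488 and 14623 TPM in replicate 2 and 15597 and 16245 TPM in replicate 1. Its protein-coding neighbours Ick and Gsta4 were at 6.32 and 21.8 TPM in replicate 2 and 6.82 and 20.0 TPM in replicate 1. The 7 listed genes of the 7SK particle and P-TEFb were all at 1 TPM or more in both libraries, with a median of 15 ± 1.32 TPM (SD, n = 2). Cdk9, the kinase of P-TEFb, averaged 22.3 ± 0.83 TPM and its cyclin Ccnt1 averaged 16.8 ± 0.31 TPM, while Hexim2, an inhibitor of P-TEFb bound to 7SK, was the lowest at 2.29 ± 1.00 TPM (SD, n = 2 each).

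Rmrp, the RNA of RNase MRP, summed over its 2 gene IDs, had 9813 TPM in replicate 2 and 9931 TPM in replicate 1 (9872 ± 83.0 TPM, SD, n = 2). The ribozyme entry had 6340 TPM in replicate 2 and 6452 TPM in replicate 1, and the longer entry had 3473 and 3479 TPM in the same order. The entries differ only by the capital letters in the sequence above, and their split carried a posterior SD of 601 counts in replicate 2 and 687 counts in replicate 1. Rmrp lies over the start of Ccdc107, a protein-coding gene on the opposite strand, which had 403 counts in replicate 2 and 388 in replicate 1, against 63959 and 63810 for Rmrp. It is not stated in the labels or headers whether the authors' counting used the strand of the reads. The next protein-coding genes were Sit1, at 0.17 TPM in replicate 2, with 0.10 TPM in replicate 1, and Arhgef39, at 2.06 and 2.37 TPM.

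Rpph1 (chr14:50807449-50807767, minus strand), the RNA of RNase P, had 7445 TPM in replicate 2 and 8775 TPM in replicate 1 (8110 ± 940 TPM, SD, n = 2). It was below Rmrp on the TPM scale in both libraries, with Rmrp at 1.32 times the Rpph1 level in replicate 2 and 1.13 times in replicate 1. In expected counts the order differed between the libraries, with a ratio of Rmrp to Rpph1 of 1.05 in replicate 2 and 0.903 in replicate 1. Rpph1 had 3 annotated copies, of which Rprl3 alone had counts, 3527 in replicate 2 and 3630 in replicate 1, or 5.80% and 5.14% of the Rpph1 count. Rprl3 matched 80.6% of Rpph1 at 86.0% identity. The deposited posterior SD of the Rpph1 count was 7.99 in replicate 2 and 8.37 in replicate 1. Whether part of the Rprl3 count is shared with Rpph1 was not tested. Ccnb1ip1, which overlaps Rpph1 on the same strand, had 0.26 TPM in replicate 2 and 0.10 TPM in replicate 1. Parp2 starts 74 bases away on the opposite strand and had 9.52 and 9.47 TPM, and Ttc5 on the other side had 12.1 and 13.6 TPM.

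Of the 11 listed protein genes of RNase P and RNase MRP, 10 were at 1 TPM or more in both libraries, with a median of 8.88 ± 0.22 TPM (SD, n = 2). Pop5 averaged 27.2 ± 2.23 TPM and Rpp21 averaged 12.8 ± 0.078 TPM, both subunits of RNase P (SD, n = 2 each). Rpp25, the lowest, had 0.59 TPM in replicate 2 and 0.95 TPM in replicate 1, while its paralog Rpp25l averaged 12.1 ± 0.064 TPM (SD, n = 2).

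The Y RNAs were barely counted. Rny1 had 8 counts in replicate 2 and 9 in replicate 1, which correspond to 16.6 and 18.9 TPM (17.7 ± 1.65 TPM, SD, n = 2). Rny3 had 0 counts in both. The gene table gives Rny1 an effective length of 13 bases and Rny3 one of 3 bases, so that 1 count is worth 2.07 TPM for Rny1 and 8.98 TPM for Rny3 in replicate 2, and 2.10 and 9.10 TPM in replicate 1. A count of 0 allows up to 3 counts, or 26.9 TPM of Rny3 in replicate 2 and 27.3 TPM in replicate 1, so Rny3 could lie above the listed level of Rny1. It was not detectable at this depth and effective length, and the part of each was not tested. None of the 12 annotated copies of Rny1 had a count in either library. The nearest protein-coding genes of both, Ezh2 and Pdia4, had 10.9 and 31.1 TPM in replicate 2 and 11.3 and 26.3 TPM in replicate 1. The gene of the Ro60 protein, Trove2, averaged 3.20 ± 0.65 TPM and that of the La protein, Ssb, averaged 57.0 ± 5.64 TPM (SD, n = 2 each).

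Terc had 92 counts in replicate 2 and 110 in replicate 1, equal to 7.65 and 9.27 TPM (8.46 ± 1.15 TPM, SD, n = 2). The deposited TPM bounds of Terc were 6.08 and 9.14 in replicate 2 and 7.48 and 10.9 in replicate 1. Those of Rny1 were 7.40 and 30.5 in replicate 2 and 8.76 and 33.4 in replicate 1, and they overlapped those of Terc in both libraries. On the TPM scale the listed level of Terc was below that of Rny1 in both libraries, but per kilobase of full length it had more counts, 239 against 75.9 on average, so the order of these neighbours depends on the effective length. Its copy 1600017P15Rik, annotated under 2 IDs, had 1 count in each library. Its neighbours Fcgr1 and BC107364 had 0.28 and 0 TPM in replicate 2 and 0.20 and 0 TPM in replicate 1. All 8 listed telomerase genes were at 1 TPM or more in both libraries, with a median of 10.1 ± 0.018 TPM (SD, n = 2). Nop10 and Nhp2, proteins of the box H/ACA particle, averaged 42.1 ± 0.37 and 24.3 ± 2.45 TPM, and Tert, the catalytic subunit, was the lowest at 1.06 TPM in replicate 2, with 1.73 TPM in replicate 1.

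The long RNAs came next. Malat1 (chr19:5795690-5802672, minus strand) had 1304 TPM in replicate 2 and 1545 TPM in replicate 1 (1424 ± 170 TPM, SD, n = 2). Neat1 (chr19:5824708-5845478, minus strand), which lies 22036 bases from Malat1, had 67.1 TPM in replicate 2 and 80.9 TPM in replicate 1 (74.0 ± 9.79 TPM, SD, n = 2). Malat1 was 19.4 times Neat1 in TPM in replicate 2 and 19.1 times in replicate 1, and 9.96 and 10.2 times in counts. In TPM of the second table it was 8.50 times Neat1 in replicate 2 and 8.34 times in replicate 1. Star, the cholesterol carrier of steroid synthesis, was among the 2 genes nearest to Malat1 in level, at 1460 TPM in replicate 2, with 1611 TPM in replicate 1, and the snRNA gene Gm25939 was the other, at 1344 and 1451 TPM. The genes nearest to Neat1 were Pam, at 68.2 and 80.7 TPM, and Phospho1, at 67.7 and 82.5 TPM in the same order. With 2 libraries this is likeness of level only. Frmd8, a protein-coding gene beside Neat1, had 9.62 TPM in replicate 2, against 9.26 TPM in replicate 1.

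Across all 10 RNAs the order of listed TPM in the gene table was Rn7s1 and Rn7s2, Rn7sk, Rmrp, Rpph1, Malat1, Neat1, Rny1, Terc and Rny3. Apart from the equal pair, no 2 neighbours with a listed level above 0 overlapped in their listed values over the 2 libraries. The order of the last 3 places was not resolved, given the overlapping bounds of Rny1 and Terc and the floor of Rny3. The second transcript table gave another order in mean TPM. Malat1 was highest there at 922 TPM, before Neat1 at 110, Terc at 14.3 and Rpph1 at 8.48 TPM. Rn7s1 and Rn7s2 were at 1.09 TPM each and Rn7sk at 0.93 TPM, while Rmrp, Rny1 and Rny3 were at 0.

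Malat1 and Neat1 each have 4 annotated transcripts, and the share of each depended on the scale. In the authors' transcript table that goes with the gene table, the longest Malat1 transcript, of 6983 bases, held 90.2% of Malat1 counts in replicate 2 and 90.1% in replicate 1. Its share of Malat1 TPM was 39.5% in replicate 2 and 39% in replicate 1, and the 3 shorter transcripts, of 485 to 656 bases, made up the rest. In the second transcript table, the longest transcript held 99.99% of Malat1 counts in both libraries and 99.6% and 99.7% of TPM. For Neat1, the long transcript of 20771 bases, which is the form paraspeckles are built on, held 62.0% of counts in replicate 2 and 58.8% in replicate 1. The short Neat1 transcript of 3004 bases held 37.1% of counts in replicate 2 and 40.3% in replicate 1, but 75.1% and 77.8% of TPM. The ratio of the short to the long Neat1 transcript in TPM was 4.26 in replicate 2 and 4.88 in replicate 1, and 3.82 and 4.44 in the second table. A division of reads between nested transcripts is an estimate of the authors' software.

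**Figure D2:**
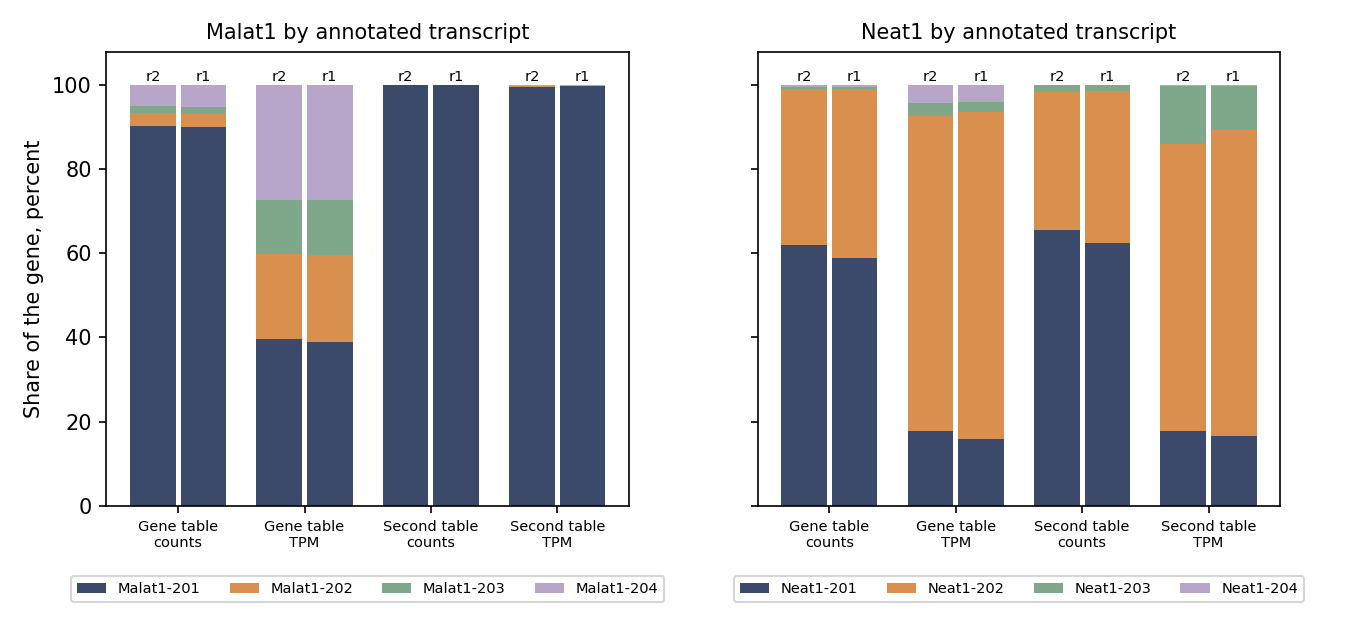
Share of each annotated transcript in Malat1 (left) and Neat1 (right), in percent of the gene, for counts and TPM of the authors' transcript table that goes with the gene table and of the second transcript table (r2 and r1 are replicate 2 and replicate 1). The longest Malat1 transcript (dark blue) fills 90.2% of the counts but 39.5% of the TPM in replicate 2 of the first table, and the short Neat1 transcript of 3004 bases (orange) has a larger share of TPM than of counts in both tables.

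Entries inside the long RNAs had few counts. Within Neat1, Gm27505 had 20.7 counts in replicate 2 and 22.8 in replicate 1, Gm27533 had 38.3 and 42.4, and Gm28006 had 5.50 and 10.8. Within Malat1, Gm27694 had 0 counts in both libraries, and Gm37376 on the opposite strand had 3 in replicate 2 and 2 in replicate 1.

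Genes for proteins of the bodies that hold these RNAs were measured as RNA, not as protein. All 9 listed paraspeckle genes were at 1 TPM or more in both libraries, with a median of 62.2 ± 0.88 TPM (SD, n = 2). Hnrnpk, an RNA-binding protein found in paraspeckles, averaged 299 ± 19.1 TPM, while Pspc1 was the lowest at 8.66 ± 1.61 TPM (SD, n = 2 each). All 7 listed nuclear speckle genes passed the same level, with a median of 62.7 ± 9.18 TPM (SD, n = 2). Srrm2, a scaffold protein of speckles, averaged 132 ± 16.1 TPM, Srsf2, a splicing factor, averaged 82.5 ± 12.2 TPM, and Srrm1 was the lowest at 37.3 ± 3.81 TPM (SD, n = 2 each).

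Genes of the polymerase that makes most of the short RNAs were likewise measured as RNA, not as protein. All 11 listed RNA polymerase III subunit genes were at 1 TPM or more in both libraries, with a median of 7.16 ± 0.014 TPM (SD, n = 2). Polr3gl and Crcp were the highest, at 10.1 ± 0.50 and 9.79 ± 0.81 TPM, and Polr3g, the paralog of Polr3gl, was the lowest at 1.82 ± 0.23 TPM (SD, n = 2 each). The 17 listed genes of polymerase III initiation and its control had a median of 8.33 ± 0.27 TPM (SD, n = 2). Maf1, a repressor of the polymerase, averaged 29.5 ± 1.75 TPM, Gtf3c1, a subunit of TFIIIC, averaged 18.8 ± 0.70 TPM, and Snapc1, a subunit of the complex that recruits the polymerase to the Rn7sk type of promoter, was the lowest at 4.21 ± 0.13 TPM (SD, n = 2 each). Over the 9 partner lists, 81 of 82 genes were at 1 TPM or more in both libraries. Among all 55536 annotated genes, 14236 reached that level in replicate 2 and 14014 in replicate 1.

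The 10 RNAs include 6 of the 562 genes annotated as misc_RNA. Those 6 held 99.97% of the counts of that class in both libraries. Nearly all of these counts were on Rn7s1, Rn7s2 and Rn7sk, with 2091067 in replicate 2 and 2236119 in replicate 1. Terc had 92 and 110, Rny1 had 8 and 9, and Rny3 had 0. Of the other 556, 85 had any count, 11 had a mean of at least 10 and none reached 100, and together they had 565 counts in replicate 2 and 601 in replicate 1. The highest of them in TPM were Gm27505, Vaultrc5, Gm27533, Rn7s6 and Gm27868. Vaultrc5, a vault RNA, had 46 counts in replicate 2 and 64 in replicate 1, and Rn7s6 had 91.1 and 86.2. Gm27868, of 102 bases, had only 1.89 and 0.88 counts in the same order, listed as 16.95 and 8.05 TPM.

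Between the libraries, the spread of these RNAs was small beside a 2-fold threshold. Counts were scaled by TMM, the trimmed mean of M values, and 8 of the 10 names had a mean of at least 100 counts and were compared. Of all 13188 annotated genes at that level, 4.48% were more than 2-fold apart, 4.37% being higher and 0.114% lower in replicate 2, and 0 of the 8 RNAs were past 2-fold in either direction. The fold of replicate 2 over replicate 1 was 0.912 for Rn7s1 and Rn7s2 (counting interval 0.910 to 0.915), from 863065 counts each in replicate 2 and 946944 in replicate 1. Rpph1 was at 0.861 (0.852 to 0.871), from 60814 counts in replicate 2 and 70678 in replicate 1. These RNAs were lower in replicate 2 by more than the counting error, which was also the case for Malat1 and Neat1. Malat1 was at 0.866 (0.860 to 0.872), from 145979 counts in replicate 2 and 168752 in replicate 1. Neat1 was at 0.884 (0.864 to 0.904), from 14656 counts in replicate 2 and 16597 in replicate 1. Rn7sk was the only one of the 8 whose interval lay above 1, at 1.07 (1.06 to 1.07). Rmrp was at 1.00 (0.992 to 1.01) and Terc at 0.837 (0.628 to 1.11), and both intervals held 1, but that of Rmrp lay below 1 when scaled to the total of annotated genes, at 0.951 (0.940 to 0.961), or to the spike-ins, at 0.965 (0.954 to 0.976). Rny1, below the minimum, was at 0.890 with an interval of 0.299 to 2.60, so its 8 and 9 counts could not show a difference of that size. The intervals are exact binomial ones at 95% for counting error and leave out any other spread between the libraries.

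Of the 8 RNAs, 6 were lower and 2 higher in replicate 2, with a median log2 ratio of -0.16, and with Rn7s1 and Rn7s2 counted once 5 were lower and 2 higher. Of the 2 higher, Rmrp had a log2 ratio of 0.0047. This ratio was -0.073 when scaled to the total of annotated genes and -0.052 when scaled to the spike-ins. Of all genes at that level, 51.0% were lower in replicate 2, with a median log2 ratio of -0.01. Their median absolute log2 ratio was 0.13. For the 8 RNAs it was 0.16, or 0.18 with Rn7s1 and Rn7s2 counted once. Of the 82 partner genes, 80 had enough counts for a ratio, and 0 were more than 2-fold apart, against 4.48% of all genes at that level. All 9 paraspeckle genes and all 7 nuclear speckle genes were lower in replicate 2, with median folds of 0.928 and 0.858. The adrenal cortex and chromaffin lists, with median folds of 0.923 and 0.850, were lower in replicate 2 as well. The liver list was at 3.30, the skeletal muscle list at 2.61 and the granulocyte list at 3.03. The brown fat list was at 1.01, with 2 genes higher and 2 lower. The part of these other tissues in the ratios of the noncoding RNAs was not tested.

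**Figure D3:**
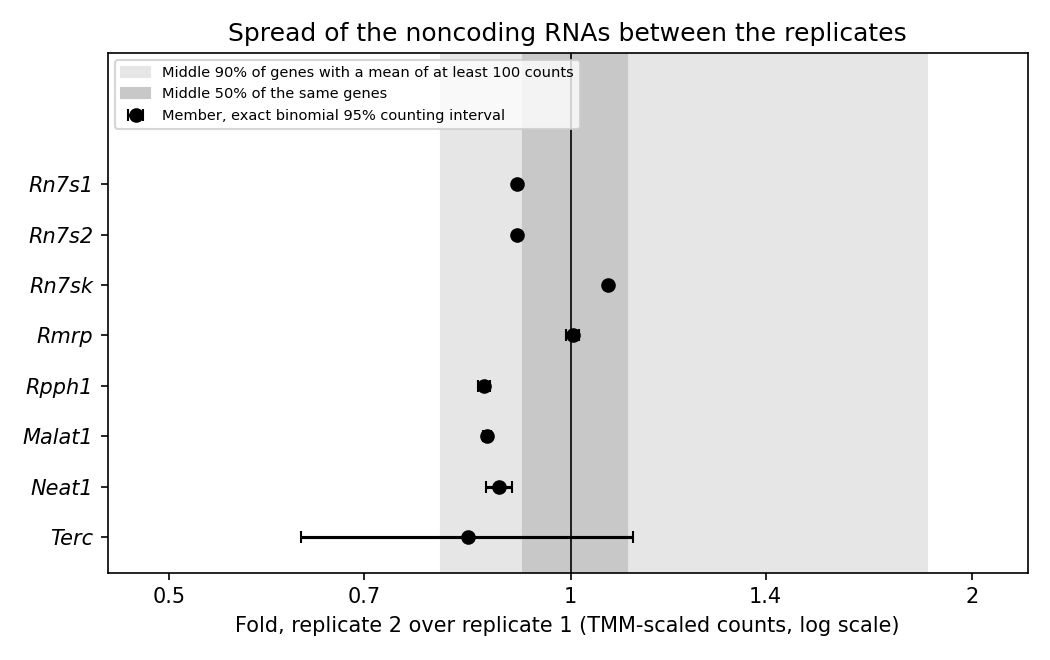
Fold of replicate 2 over replicate 1 in TMM-scaled expected counts (log axis) for the 8 noncoding RNAs that reached a mean of 100 counts, with exact binomial 95% intervals for counting error. The grey bands hold the middle 90% and the middle 50% of all 13188 genes at that level, and every point lies inside the wider band. Rn7sk and Rmrp also lie inside the narrower band, and the other RNAs lie below it.

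The same libraries gave different counts of the short RNAs in the 2 deposited quantifications. The gene table comes from alignments to the transcriptome, and the second transcript table, summed here per gene, was made from the reads and an index without them. Rn7s1 had 863065 counts in the gene table and 1.5 in the second table in replicate 2, and 946944 and 2.5 in replicate 1. Rn7s2 had the same values in both tables. Rn7sk had 364937 counts in the gene table and 2 in the second table in replicate 2, and 342230 and 2 in replicate 1. Rpph1 had 60814 and 13 counts in replicate 2, and 70678 and 21 in replicate 1. Rmrp had 63959 counts in the gene table and 0 in the second table in replicate 2, at least 21320-fold higher against a floor of 3 counts per library, and at least 21270-fold higher in replicate 1. These 5 RNAs were thus among the highest genes of the gene table and had 21 counts or fewer in the second.

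Terc stood between, with 92 counts in the gene table and 46 in the second table in replicate 2, and 110 and 52 in replicate 1. The 8 and 9 counts of Rny1 in the gene table were set against 0 in the second, and Rny3 was at 0 in both. The long RNAs differed little and in the other direction: Malat1 had 145979 counts in the gene table and 164845 in the second table in replicate 2, a ratio of 0.886, and 168752 and 187063 in replicate 1, a ratio of 0.902. Neat1 had ratios of 0.899 in replicate 2 and 0.912 in replicate 1. In TPM the Malat1 ratio turned round, to 1.58 in replicate 2 and 1.52 in replicate 1, and so did that of Terc, to 0.602 and 0.584.

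Summed over the 10 RNAs, the share of all counts was 6.10% in the gene table and 0.471% in the second table in replicate 2, and 6.91% and 0.573% in replicate 1. The total counts of the second table were 98.7% of those of the gene table in replicate 2 and 96.9% in replicate 1. Of the 8 names with a mean of at least 100 counts, 6 were more than 2-fold higher in the gene table, or 5 of 7 with Rn7s1 and Rn7s2 counted once. Among all 13183 genes compared, 3.18% were more than 2-fold apart and 2.69% more than 2-fold higher in the gene table, and among the 230 genes whose longest transcript has up to 500 bases the share higher in the gene table was 88.3%. The tally of the short RNAs past 2-fold was therefore near that of genes of like length. Terc was at the threshold, 2-fold apart in replicate 2 and 2.12-fold in replicate 1, so that 5 of the 8 names were more than 2-fold higher in replicate 2 and 6 in replicate 1.

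**Figure D4:**
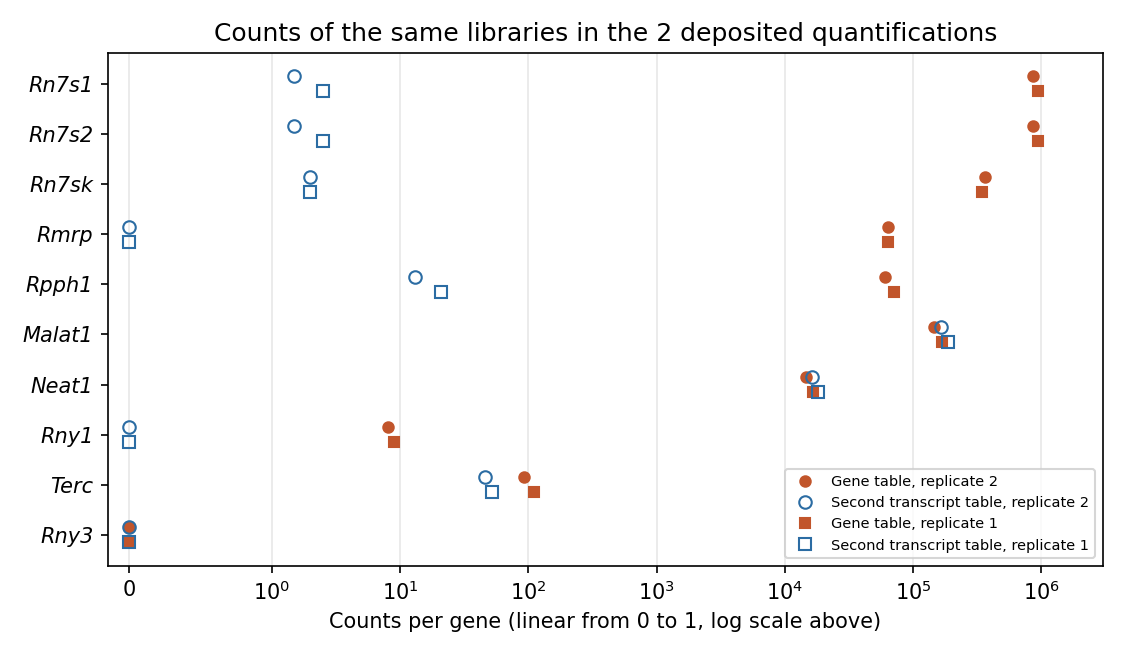
Counts of each noncoding RNA in the gene table (filled, orange) and the second transcript table (open, blue) of the same libraries, with circles for replicate 2 and squares for replicate 1, on an axis that is linear from 0 to 1 and logarithmic above. Malat1 and Neat1 nearly coincide, while Rn7s1, Rn7s2, Rn7sk, Rmrp and Rpph1 lie at most at 21 counts in the second table.

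The difference went with transcript length over other genes too. Taking genes whose mean reached 100 counts in either table, and leaving out the 10 RNAs, all 75 with a longest transcript of up to 250 bases and all 32 of 250 to 350 bases were more than 2-fold higher in the gene table. The share was 73.6% of 121 genes from 350 to 500 bases, 15.6% of 597 from 500 to 1000 bases, 1.92% of 2088 from 1000 to 2000 bases and 0.178% of 10647 above 2000 bases. The 75 shortest genes had 171247 counts in the gene table and 0 in the second table in replicate 2, and 206517 and 0 in replicate 1. In the class of 250 to 350 bases, to which Rn7s1, Rn7s2, Rn7sk, Rpph1 and both Rmrp entries belong, the 32 other genes had 90863 counts in the gene table and 11602 in the second table in replicate 2, or 12.8% of them, and 90079 and 10733 in replicate 1, or 11.9%. The 6 entries of the noncoding RNAs had 2215840 counts in the gene table and 18 in the second table in replicate 2. They had 2370606 and 28 in replicate 1. In pooled counts their difference was thus larger than that of the 32 other genes. Pooled counts follow the genes with the most counts. The median log2 ratio of gene table over second table among the 32 was 9.42. That of the 6 entries ran from 11.9 for Rpph1 to 18.5 for Rn7s1 and Rn7s2. With few or no counts in the second table, this ratio grows with the count in the gene table. A difference in size at equal abundance was not tested. For long transcripts the second table subtracted 329 bases in replicate 2 and 333 bases in replicate 1 from the length to reach the effective length, and the gene table subtracted 99 bases in both. Rn7s1, Rn7s2, Rn7sk, Rmrp and Rpph1, of 271 to 331 bases, are thus shorter than or close to the length that the second table subtracts and longer than the one the gene table subtracts. Whether this difference in effective length produces the missing counts was not tested.

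**Figure D5:**
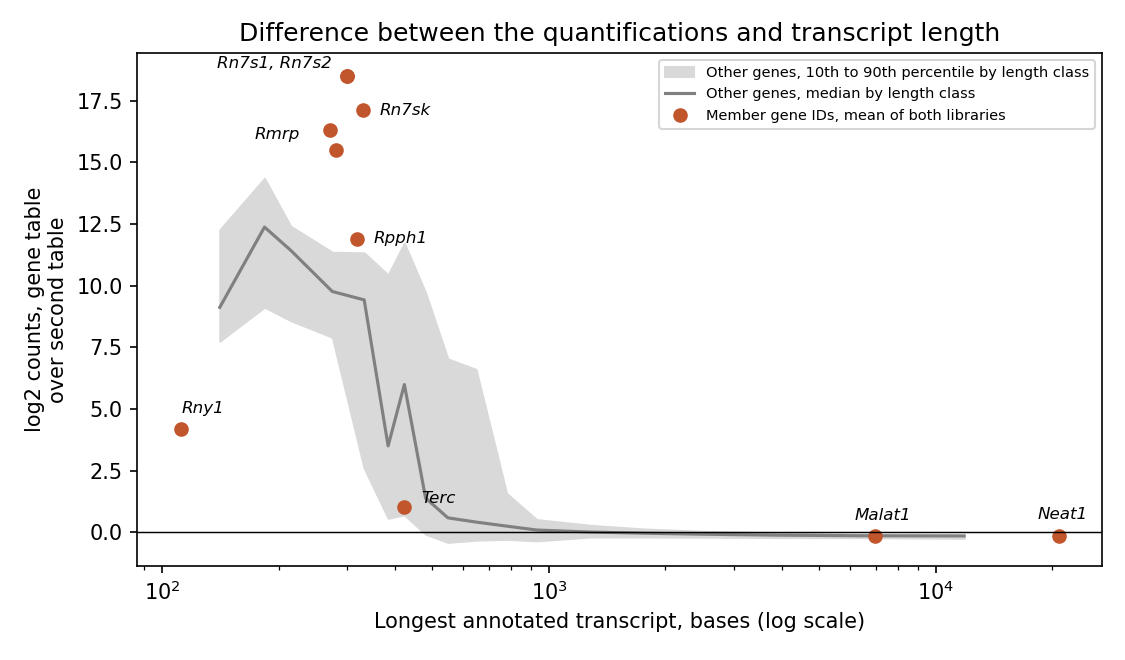
Mean log2 ratio of counts in the gene table over the second transcript table, with 0.5 added to both counts, against the longest annotated transcript (log axis). Points are the gene IDs of the noncoding RNAs (Rny3, at 0 in both, is not drawn, and Rny1 has fewer than 100 counts), the line is the median and the band the 10th to 90th percentile of other genes by length class. Malat1 and Neat1 lie close to 0, where other long genes lie, and the RNAs of 271 to 331 bases lie above 11.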

How the data were processed

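Total RNA was measured in 2 libraries of 1 group. Per the file headers and deposited notes, the authors quantified transcriptome alignments (mm10, GENCODE M21) into a gene table and a matching transcript table, with expected counts that are not normalised, TPM over all entries and each transcript's percent of its gene. A second deposited transcript table, made directly from the reads and an index, holds estimated counts and TPM and was summed per gene. Column names are those of RSEM and kallisto; for the aligner, the tools and their versions, nothing is given in the sources used here. Posterior SDs and TPM bounds are the authors' deposited values.

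Names were matched to GENCODE M21, and the 2 IDs of Rmrp were summed. Ratios used counts scaled by edgeR 4.0.16 (TMM), with a prior of 0.5 for log2 values, and genes whose mean reached 100 counts; single folds carry exact Clopper-Pearson 95% intervals. Where a count was 0, a floor of 3 counts per library was used. Without molecular identifiers, intervals and floors describe counting error alone. Copies were found with BLASTN 2.17.0 at 80% identity over 80% of the member. With 1 library per replicate no test was made. The ratio step was tested on simulated counts. Alternatives were DESeq2 1.42.0 size factors, totals, spike-ins, other count and TPM thresholds, and the second table.

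Named genes are the 10 RNAs and their transcripts, the 2 highest and the lowest gene of each partner list, flanking protein-coding and overlapping genes, the 2 nuclear genes nearest in level to Malat1, Neat1 and Rn7sk by log2(TPM + 0.1), the 5 highest other misc_RNA genes, and copies; Rpp25l was named after its value was seen, and some items that the rule names are not reported here. The members, lists and motifs were chosen with earlier results of these data known.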

Additional observations from a re-analysis of the deposited data

How the results depend on the processing

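The summed level of the 10 RNAs, 305164 TPM on average, was 1057 TPM in the second table, 917004 when rescaled to the TPM total of nuclear protein-coding genes and 439680 when rescaled to that of all other entries; single libraries gave 292317 to 318011 TPM. Their share of counts, 6.50%, was 8.55% of annotated counts without the mitochondrial genome and 0.522% in the second table, and 6.10% to 6.91% in single libraries. The median log2 ratio between replicates stayed between -0.23 and -0.16 under every scaling tried, but Rmrp was lower in replicate 2 by more than counting error under the total and spike-in scalings alone. Genes more than 2-fold apart between replicates numbered 591, but 1405 at a mean of at least 10 counts and 145 at 1000. The median log2 ratio of gene table over second table was 14.44 on counts and 12.61 on TPM, with single libraries at 14.32 and 14.55; these depend on the value added to the 0 counts of Rmrp, and with those at the floor of 3 counts the median was 13.17. Genes more than 2-fold apart between the tables numbered 419, but 1073 at a mean of 10 counts, 152 at 1000 and 1702 on TPM. On TPM the log2 ratio between tables changed sign for Malat1, to 0.63 against -0.16 on counts, and for Terc, to -0.75 against 1.03. The long Neat1 transcript held 60.4% of Neat1 counts and 64.0% in the second table, with single libraries at 58.8% and 62.0%. The cause of these differences was not tested, except that other count minimums change how many genes enter. Few or no counts limit Rny1 and Rny3, with the part of depth and of effective length not tested, and Terc only just passed the minimum of 100 counts. No paired analysis was possible because there is only 1 group.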
